A study of Mus musculus with 4 samples.

Results

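Some protein-arginine deiminases (Padi genes) and transglutaminases (Tgm genes) harden the cornified layers of epidermis and hair. Others are known best from other tissues or cells, such as skeletal muscle, endothelium and granulocytes. The genes described here are Padi1, Padi2, Padi3, Padi4, Tgm1, Tgm2, Tgm3 and Tgm5, chosen by symbol. All 8 were found among the 22913 genes of the dWAT transcriptome. Deiminases turn arginine residues of a protein into citrulline, which loosens the protein and opens it to other enzymes. Transglutaminases then join glutamine to lysine residues, and the cross-linked protein becomes insoluble. In the inner root sheath and the medulla of the hair follicle (HF) trichohyalin is the best known substrate of both families, and in the epidermis they act on filaggrin and on the proteins of the cornified envelope.

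dWAT is the fat layer that surrounds the lower ends of HFs. The submitters obtained it by microdissection of C57BL/6 mouse skin, in which the fat and the thin skin muscle beneath dWAT are discarded and the layer is then detached at the base of the HFs. The groups were OTD (old mice of 18 months, telogen, the resting phase of the HF), YTD (young mice of 2 months, telogen), OAD (18 months, anagen, the growth phase) and YAD (2 months, anagen), with 1 library each. The age field of YTD and OAD goes against their titles, and the titles were followed. Anagen had been induced by depilation in OAD and YAD only, so that hair cycle phase and depilation cannot be told apart. The authors report that old mice took longer than young mice to enter anagen after depilation. The time after depilation of OAD and YAD is not known here, and age cannot be told apart from it in anagen. The authors deposited FPKM, fragment counts divided by the length of the gene and the size of its library. No spread between replicates is known, so each difference below compares single libraries and carries no p-value. Differences are given as log2(FPKM + 1) of the first library minus the second, a scale that understates the change of weakly expressed genes, and a gene is called past the threshold where the difference was at least 1 in size. Intervals of folds are 95% counting intervals from estimated fragment numbers and cover counting error only.

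Facts of the whole series bear on the values. Estimated depth was 19000000 to 24900000 fragments per library. Mitochondrial genes held 44.7% and 52.7% of the summed FPKM in telogen and 14.4% and 18.3% in anagen. Adipocyte markers were present in each library, with Adipoq, a hormone of fat cells, between 76.5 and 427 FPKM. The summed FPKM of 10 adipocyte markers was 9774 in OTD and 8969 in YTD, with 2564 in OAD and 1956 in YAD. Markers of other tissues were present too. The summed FPKM of 12 skeletal muscle markers was 59143 in OTD and 93310 in YTD, with 14139 in OAD and 10671 in YAD. For 11 hair shaft markers it was 33.1, 98.6, 10261 and 10600 in the same order. In bulk tissue, fewer cells of a type and less RNA per cell cannot be told apart.

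The deiminase genes stand in 1 cluster on chromosome 4. On GRCm38 it spans chr4:140727355-140952586, 225232 bp, in the order Padi6, Padi4, Padi3, Padi1 on the minus strand and Padi2 on the plus strand. Tgm3 (chr2:130012349-130050399) lies beside Tgm6, and Tgm5 (chr2:121046111-121085841) between Epb42 and Tgm7. Tgm2 (chr2:158116402-158146436) and Tgm1 (chr14:55700009-55713492) stand apart from other family members. The promoters of the 3 members with the largest folds between anagen and telogen in the old, and that of Padi2, the deiminase that differed in the other direction, are shown for comparison. Each runs 5′ to 3′ on the strand of its gene, from 250 bases before to 50 bases after the start site, and was taken from RefSeq on GRCm38.p6. Capitals mark matches to 3 motifs, searched on both strands. The TATA box was searched as TATAAA. The GC box was searched as GGGCGG, and the AP-1 site as the letters TGANTCA. None of these letter strings overlap in the printed windows. A search for CTTTGAA (TCF/LEF site) gave no match in them.
Padi3 (chr4:140810599-140810898): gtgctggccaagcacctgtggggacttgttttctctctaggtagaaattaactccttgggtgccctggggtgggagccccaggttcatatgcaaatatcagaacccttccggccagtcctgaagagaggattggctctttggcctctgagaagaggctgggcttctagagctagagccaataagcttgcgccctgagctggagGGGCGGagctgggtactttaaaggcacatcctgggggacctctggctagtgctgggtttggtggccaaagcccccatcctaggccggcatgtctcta
Padi4 (chr4:140774154-140774453): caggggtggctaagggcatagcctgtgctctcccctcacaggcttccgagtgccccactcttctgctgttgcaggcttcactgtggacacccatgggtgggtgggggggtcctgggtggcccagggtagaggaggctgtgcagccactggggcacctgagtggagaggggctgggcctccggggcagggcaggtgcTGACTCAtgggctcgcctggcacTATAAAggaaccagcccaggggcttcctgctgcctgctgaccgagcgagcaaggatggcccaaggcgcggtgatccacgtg
Tgm3 (chr2:130012090-130012389): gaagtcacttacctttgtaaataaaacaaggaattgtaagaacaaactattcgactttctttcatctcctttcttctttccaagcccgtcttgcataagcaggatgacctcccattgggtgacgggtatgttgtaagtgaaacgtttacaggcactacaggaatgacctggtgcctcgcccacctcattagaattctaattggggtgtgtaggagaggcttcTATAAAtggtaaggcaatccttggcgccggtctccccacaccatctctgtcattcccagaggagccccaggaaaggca
Padi2 (chr4:140906110-140906409): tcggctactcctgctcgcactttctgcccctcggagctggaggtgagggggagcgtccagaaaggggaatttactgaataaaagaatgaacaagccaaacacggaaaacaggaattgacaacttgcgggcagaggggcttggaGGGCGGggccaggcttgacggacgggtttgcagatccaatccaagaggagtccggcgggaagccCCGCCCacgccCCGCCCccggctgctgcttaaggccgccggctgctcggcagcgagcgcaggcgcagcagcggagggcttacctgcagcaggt

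TATAAA began at position -31 of Padi4 and at -28 of Tgm3, counted from the start site, and 13.6% of 32851 mouse promoters hold this motif. Padi4 also held TGANTCA at -54, which 7.81% of promoters hold. Padi2 held 3 GC boxes and 22 CpG, more CpG than 76.9% of promoters, and Padi3 held 1 GC box and 4 CpG. GGGCGG occurs in 35.7% of promoters, CTTTGAA in 5.14%, and the median promoter holds 7 CpG at a GC content of 52.7%. The Padi1 and Tgm5 promoters held none of the 4 motifs and 3 CpG each. Of the entries of Tgm1, 1 held 2 GC boxes and the other none of the motifs. These are matches of letters in a window and say nothing of a bound factor.

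Anagen was compared with telogen within each age. Padi1, Padi3, Padi4, Tgm1, Tgm3 and Tgm5 were higher in anagen in both ages, and Padi2 and Tgm2 were lower. All 8 differed by at least 1 on the log2 scale in the young (YAD against YTD) and in the old (OAD against OTD), 6 upward and 2 downward. Of all genes with a value in the young pair, 16.1% were higher and 16.7% lower by this measure, and in the old pair 16.1% and 15.6%. The median difference of the members was 4.07 in the young and 5.04 in the old, beside 0.02 and 0.01 over all genes.

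Padi3 deiminates trichohyalin and the calcium-binding protein S100a3 in the HF. Its FPKM was 2.94 in OTD and 6.89 in YTD, with 292 in OAD and 213 in YAD, so that both anagen libraries lay far above both telogen libraries. The fold was 30.9 (27.4 to 35.2) in the young and 99.4 (82.7 to 120) in the old, or 4.76 and 6.22 on the log2 scale. In anagen Padi3 had the highest FPKM of the 8 members.

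Padi1 acts in the upper epidermis and in the inner root sheath. It measured 0.644 FPKM in OTD and 1.19 in YTD, with 57.6 in OAD and 28.1 in YAD. The anagen value was 23.6 times (17.5 to 32.5) the telogen value in the young and 89.5 times (60.2 to 136) in the old.

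Padi4 is known best from granulocytes, where it citrullinates histones. It stood at 0.724 FPKM in OTD and 0.542 in YTD, with 68.2 in OAD and 40.8 in YAD, which puts both telogen libraries under 1 and both anagen libraries over 40. The fold was 75.3 (48.2 to 120) in the young and 94.1 (65.5 to 141) in the old. Of 10 neutrophil markers, no more than 1 differed between phases by at least 1 in either age, with none higher and 1 lower in the young and none in the old. Their summed FPKM was 137 and 118 in telogen (OTD, YTD) and 142 and 59.1 in anagen (OAD, YAD). S100a8, which keratinocytes also make, held most of it at 123, 114, 129 and 56.7, and S100a9, with the widest range of the list, stood at 11.7, 0.656, 11.2 and 1.26. The other 8 markers did not pass 3 FPKM in any library, and Mpo was listed at 0 in all. The part of neutrophils in the Padi4 values was not tested.

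Tgm1 is the membrane-anchored transglutaminase of keratinocytes, whose loss in man causes lamellar ichthyosis. Its FPKM was 0.802 in OTD and 1.28 in YTD, with 53.7 in OAD and 47.7 in YAD. The anagen libraries were higher by 37.4-fold (29.1 to 49.5) in the young and 67.0-fold (49.4 to 95.3) in the old.

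Tgm3, the enzyme of the inner root sheath and hair shaft that cross-links trichohyalin, measured 0.486 FPKM in OTD and 0.923 in YTD, with 57.3 in OAD and 50.1 in YAD. In anagen Tgm1, Tgm3 and the related Tgm6 stood between 47.7 and 65.6 FPKM. The fold of Tgm3 was 54.3 (38.8 to 76.3) in the young and 118 (77.3 to 196) in the old.

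Tgm5, a transglutaminase of the upper epidermis whose loss causes peeling skin, was the lowest member. It stood at 0.0681 FPKM in OTD, which is about 3 fragments, and at 0.144 in YTD, with 1.83 in OAD and 2.34 in YAD. The fold was 16.3 (7.21 to 44.8) in the young and 26.9 (8.84 to 131) in the old. On the log2(FPKM + 1) scale these were 1.55 and 1.41, the smallest upward differences of the members.

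Padi2, a deiminase of skeletal muscle, brain and glands, went the other way. It measured 17.0 FPKM in OTD and 28.0 in YTD, with 3.71 in OAD and 2.35 in YAD. Telogen was above anagen by 11.9-fold (9.80 to 14.5) in the young and 4.58-fold (3.89 to 5.41) in the old. Tgm2, the widely expressed tissue transglutaminase of endothelium, stroma and muscle, measured 122 FPKM in OTD and 176 in YTD, with 34.7 in OAD and 28.3 in YAD. It was 6.23-fold (5.88 to 6.62) higher in telogen in the young and 3.50-fold (3.31 to 3.70) in the old. Tgm2 overlaps Rprd1b on the opposite strand, which held 9.12 to 16.0 FPKM, and whether reads were counted by strand is not given in the sources used here.

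**Figure D1:**
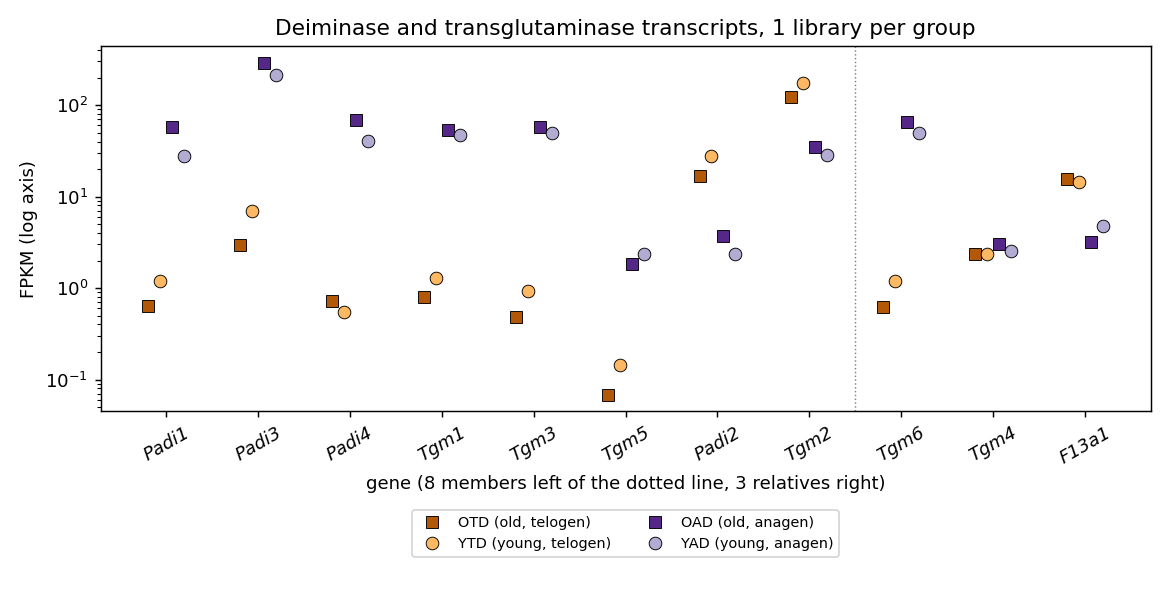
FPKM on a log axis of the 8 members and of 3 related genes, with 1 point per library: squares are old, circles young, orange telogen and purple anagen. The anagen points of Padi1, Padi3, Padi4, Tgm1, Tgm3, Tgm5 and Tgm6 lie above their telogen points and those of Padi2, Tgm2 and F13a1 below.

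**Figure D2:**
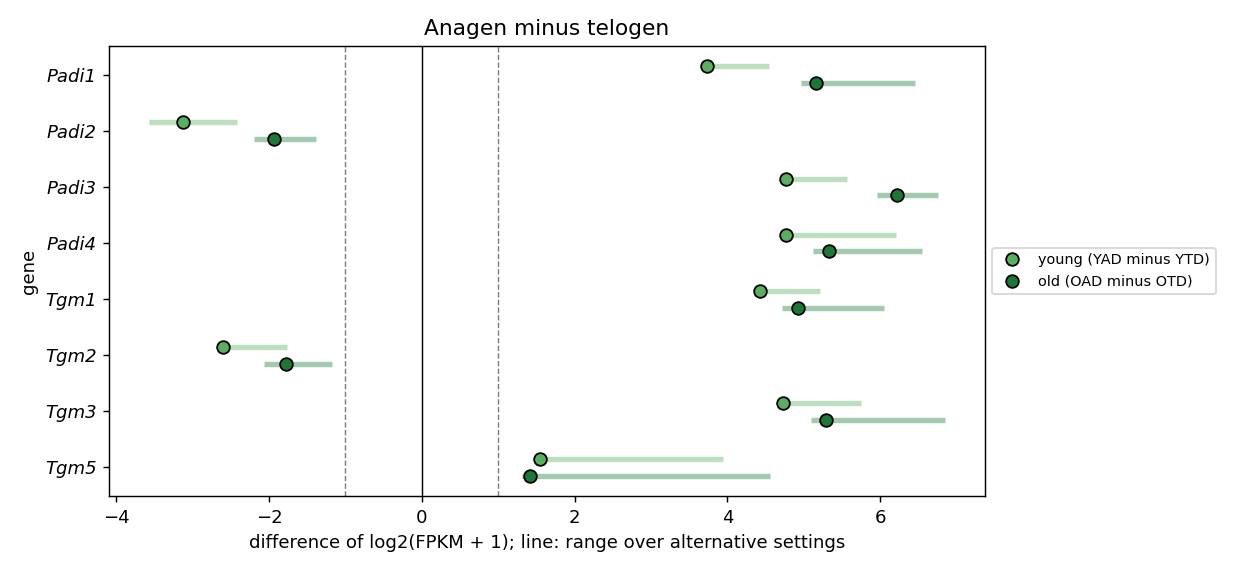
Difference of log2(FPKM + 1) between anagen and telogen for each member, in the young (light green) and the old (dark green). Lines give the range over the alternative settings and dashed lines the threshold of 1, and Padi2 (-3.12 and -1.93) and Tgm2 (-2.60 and -1.78) are the members left of 0.

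The leading gene of each family was not the same in telogen and anagen. Padi2 held 79.7% of the summed Padi FPKM in OTD and 76.5% in YTD, but 0.878% in OAD and 0.826% in YAD. Padi3 held 13.8% and 18.8% in telogen and 69.3% and 75.0% in anagen, where Padi4 followed with 16.2% and 14.3% and Padi1 with 13.7% and 9.87%. The Padi genes summed to 21.3 FPKM in OTD and 36.6 in YTD, with 422 in OAD and 284 in YAD. Among the Tgm genes, Tgm2 held 96.5% in OTD and 96.8% in YTD, and 16.1% in OAD and 15.7% in YAD. In anagen Tgm6, Tgm3 and Tgm1 held 30.3%, 26.5% and 24.8% in OAD and 27.4%, 27.7% and 26.4% in YAD. The summed Tgm FPKM was 126 in OTD and 182 in YTD, with 216 in OAD and 181 in YAD, a narrower range than that of the Padi genes.

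**Figure D3:**
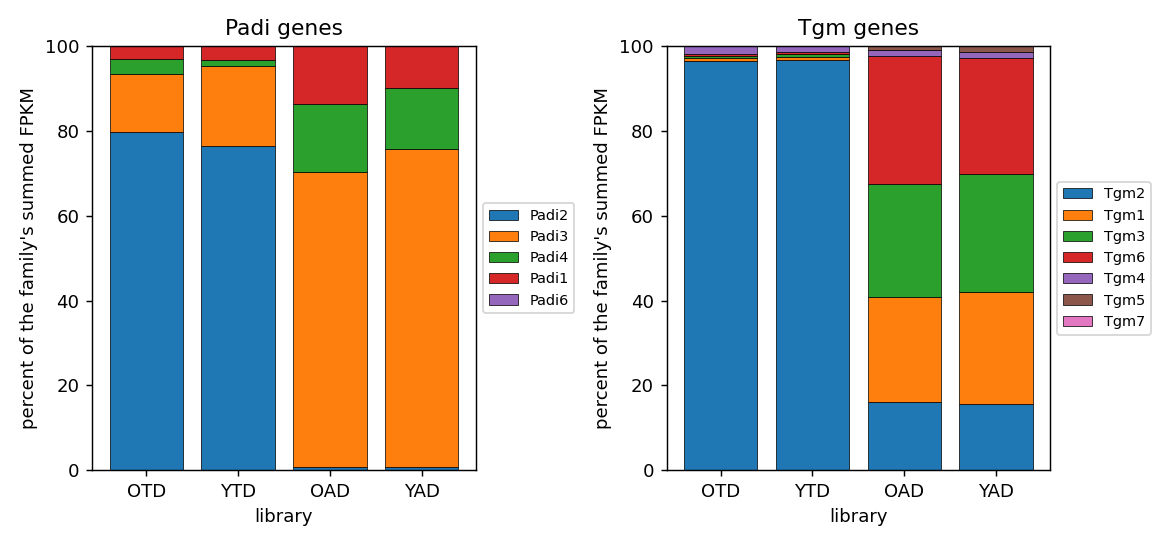
Percent of the summed FPKM of the Padi genes (left) and the Tgm genes (right) held by each gene in each library. Padi2 holds 76.5% or more of the Padi sum in telogen and under 1% in anagen, and Tgm2 holds over 96% of the Tgm sum in telogen and 15.7% to 16.1% in anagen.

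The 6 relatives outside the members differed among themselves. Tgm6, a transglutaminase known from the nervous system that lies beside Tgm3, measured 0.621 FPKM in OTD and 1.20 in YTD, with 65.6 in OAD and 49.5 in YAD, a log2 difference between anagen and telogen of 4.52 in the young and 5.36 in the old. F13a1, the A chain of blood clotting factor XIII, measured 15.7, 14.3, 3.17 and 4.81 FPKM in the same order and was lower in anagen by -1.40 and -2.0012. Tgm4, the prostate enzyme, stood between 2.37 and 3.04 FPKM in the 4 libraries. Tgm7 did not pass 0.182 FPKM, Padi6 of the oocyte was listed at 0 in all libraries, and Epb42, an erythrocyte relative without enzyme activity, was above 0 in OAD only, at 0.0111.

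Next to the deiminases, Rcc2 stood at 11.1 FPKM in OTD and 16.0 in YTD, with 121 in OAD and 130 in YAD. On the other flank Sdhb, a subunit of mitochondrial succinate dehydrogenase, measured 249, 376, 115 and 124, and Atp13a2 beyond it 14.4, 18.7, 54.3 and 62.3. Arhgef10l, beyond Rcc2, measured 12.2, 14.8, 22.8 and 18.6, below the threshold between phases at 0.31 in the young and 0.85 in the old. The flanking genes thus differed between phases in both directions and to unlike degrees. Beside Tgm3 and Tgm6, Stk35 stood between 5.58 and 6.28 FPKM and Snrpb between 111 and 180 over the 4 libraries.

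Transcripts of proteins on which the enzymes act, or that lie beside them in the HF, moved with the 6 anagen-high members. All 10 genes of a list of trichohyalin, its relative Tchhl1, S100a3 and inner root sheath keratins (the substrate list, though not all of it is known to be modified) were higher in anagen by at least 1 in both ages, with medians of 5.12 and 6.46. Tchh, which encodes trichohyalin, had 32.2 FPKM in OTD and 51.8 in YTD, with 4477 in OAD and 2693 in YAD. S100a3 had 43.7, 136, 4415 and 4352. Krt72, an inner root sheath keratin, had 13.1, 13.2, 1355 and 651.

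Of 15 cornified envelope genes in the files, 13 were above 0 in each pair, and 11 were higher in anagen by at least 1 in the young and 10 in the old, with medians of 4.06 and 4.96. Ivl, which encodes involucrin, measured 0.738 FPKM in OTD and 0.827 in YTD, with 136 in OAD and 91.1 in YAD. Cnfn (cornifelin) measured 13.2, 10, 941 and 553. Loricrin (Lor), the major envelope protein of epidermis, did not pass 6.94 FPKM. The 6 suprabasal epidermis markers summed to 29.8 and 21.8 FPKM in telogen (OTD, YTD) and 226 and 160 in anagen (OAD, YAD), and 4 of 6 were higher in anagen by at least 1 in the young and 2 of 6 in the old. Sbsn (suprabasin) had 11.1, 11.8, 134 and 80.9 FPKM and Dsg1a (desmoglein 1) 1.76, 3.18, 60.4 and 53.7, while Krt1, Krt2 and Krt10, the keratins that define this layer, did not pass 0.126, 2.98 and 3.78. The part of epidermis in the values of the members was not tested.

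A further list held 11 proteases and inhibitors that process transglutaminases, filaggrin or its citrullinated pieces. Of these genes 8 were higher in anagen by at least 1 in both ages and none lower, with medians of 1.41 and 2.06. Asprv1, a protease that cleaves profilaggrin, had the widest range, with 2.27 FPKM in OTD and 6.46 in YTD, with 305 in OAD and 207 in YAD. Of 10 genes of the lipid envelope 7 were higher by at least 1 in both ages and none lower, with medians of 1.99 and 2.74, among them Pnpla1, which makes skin acylceramides, at 0.198, 0.469, 16.6 and 11.7 FPKM. Of 10 transcription factors of keratinocyte and HF differentiation, 10 were higher by at least 1 in the young and 9 in the old, with medians of 3.59 and 4.01. Zfp750 had the widest range there, from 0.509 FPKM in OTD and 1.61 in YTD to 55.8 in OAD and 59.0 in YAD.

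The members were also set against the summed FPKM of the lists, a measure chosen after the values had been seen. Per 1000 FPKM of the substrate list, Padi3 stood at 10 in OTD and 12.7 in YTD, with 12.4 in OAD and 12.6 in YAD, so that its highest value was 1.27 times its lowest. Tgm1 stood at 2.72, 2.36, 2.28 and 2.81, a range of 1.23-fold, and Padi1 at 2.19, 2.20, 2.45 and 1.66, a range of 1.48-fold. For Tgm3 the range was 1.79-fold, for Padi4 2.89-fold and for Tgm5 3.40-fold. Padi2 and Tgm2 ranged over 416-fold and 280-fold by this measure. The ratio depended on the list taken. Per 1000 FPKM of the 11 hair shaft markers Padi3 stood at 88.9 and 69.8 in telogen (OTD, YTD) and at 28.5 and 20.1 in anagen (OAD, YAD), a range of 4.42-fold with anagen below telogen. Tgm1 ranged over 5.39-fold and Padi1 over 7.35-fold against that list, with anagen again the lower phase.

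Per 1000 FPKM of 12 skeletal muscle markers the order was turned around. Padi2 stood at 0.287 in OTD and 0.3 in YTD, with 0.262 in OAD and 0.220 in YAD, a range of 1.37-fold. Tgm2 stood at 2.06, 1.89, 2.46 and 2.65, a range of 1.40-fold, and per 1000 FPKM of 10 adipocyte markers it ranged over 1.58-fold. Against markers of Schwann cells, macrophages and endothelium Tgm2 ranged over 1.85-fold, 2.01-fold and 2.29-fold. Padi2 ranged over 3.15-fold, 3.84-fold and 3.5-fold against these, and over 2.6-fold against the adipocyte markers. The other 6 members ranged over 190-fold or more per muscle marker FPKM. The summed FPKM of the adipocyte, endothelium, macrophage and Schwann cell markers was, like that of muscle, lower in both anagen libraries than in both telogen libraries. Sums of HF genes thus moved with 6 members, and those of muscle and several other tissues with Padi2 and Tgm2. The part of these tissues in the differences was not tested.

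**Figure D4:**
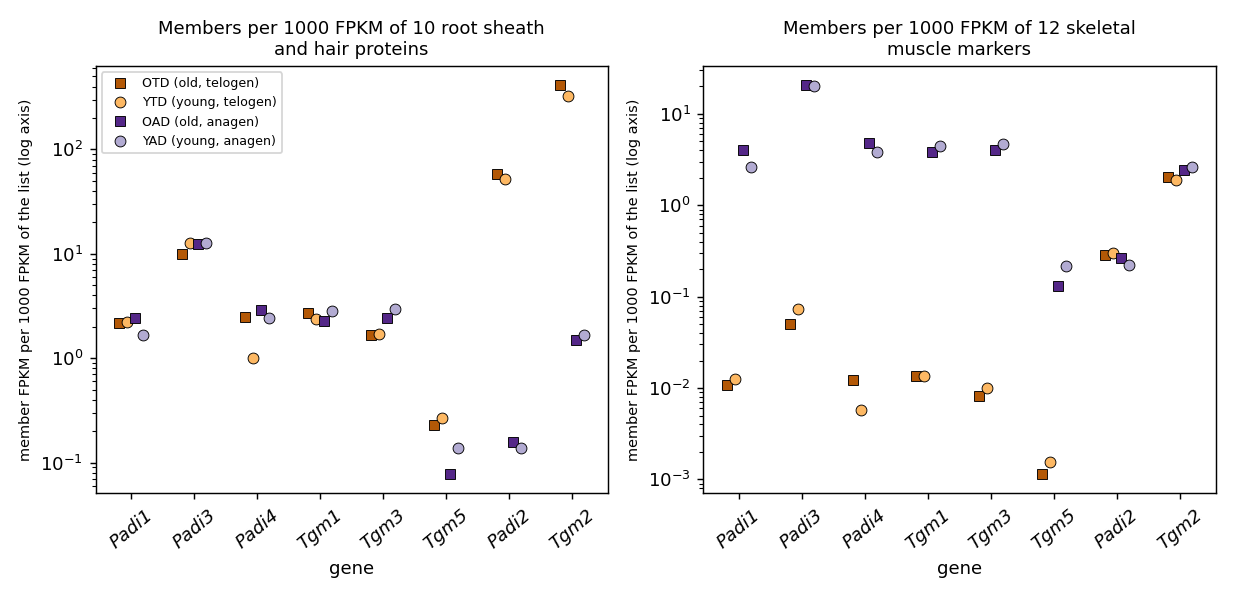
FPKM of each member per 1000 FPKM of 10 root sheath and hair protein genes (left) and of 12 skeletal muscle markers (right), on log axes, with 1 point per library. On the left the points of Padi3 lie within 1.27-fold and those of Tgm1 within 1.23-fold, and on the right those of Padi2 lie within 1.37-fold and those of Tgm2 within 1.40-fold.

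The genes with the most similar pattern were found by the root mean square difference of centred log2(FPKM + 1) over the 4 libraries, among 13567 genes. Nearest to Padi3 were Sfn (0.075), Dsp (0.108) and Asprv1 (0.120), and nearest to Padi1 were Lce3d (0.075), Sprr1a (0.151) and Cdsn (0.160). Padi4 had Crisp1 (0.1), Foxq1 (0.119) and Sprr1b (0.121) beside it. For Tgm1 they were Foxe1 (0.045), Elf5 (0.069) and Fgf22 (0.072), and for Tgm3 Atg9b (0.037), Nccrp1 (0.064) and Lgals7 (0.076). Padi2 lay nearest to Mlip (0.022), Ckm (0.028) and Mybpc2 (0.037), and Tgm2 to Asb15 (0.036), Smtnl2 (0.037) and Fermt2 (0.040). Tgm5, with its small range on this scale, had 758 genes within 0.2, the first being BC055324 (0.009), Sart3 (0.016) and Zfp553 (0.025). Within the same distance Tgm2 had 235 genes and Padi2 154, so that many genes shared their patterns. Tgm1 had 42 genes, Tgm3 36, Padi3 13, and Padi1 and Padi4 10 each.

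Comparing OTD with YTD, the members were lower in the old, except Padi4, as were 9316 of 17230 genes with a value. Padi3 was past the threshold, at -1.0008, and it was the only member that was, 1 of 8, where 1.93% of all genes with a value were lower and 1.67% higher by as much. The call was lost under each of 5 rescalings, which gave -0.97 to -0.81. Its level in OTD was 0.427 (0.342 to 0.535) of that in YTD. The median difference of the members was -0.39, beside -0.03 for all genes. Padi2 followed with -0.69, at 0.605 (0.548 to 0.666) of the young level, then Tgm2 with -0.53, at 0.690 (0.665 to 0.715). Padi1 (-0.41), Tgm3 (-0.37) and Tgm1 (-0.34) stood at 0.542 (0.325 to 0.907), 0.527 (0.282 to 0.906) and 0.629 (0.407 to 0.955) of the young level, on 20.3 to 59.4 estimated fragments each. For Padi4 (0.16) and Tgm5 (-0.10) the counting interval of the fold held 1, at 0.722 to 2.42 and 0.0767 to 2.22, so that a difference was not detectable at this depth.

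Comparing OAD with YAD, 7 of 8 members were higher in the old, as were 8800 of 17613 genes with a value. Padi1 was past the threshold, at 1.01, 1 of 8 members, where 0.727% of all genes were higher and 0.454% lower by as much. The call was lost with TPM, at 0.79, and with the 3 rescalings that leave out mitochondrial genes, at 0.85 to 0.90. Its level in OAD was 2.05 (1.92 to 2.19) times that in YAD. Padi4 was higher by 0.73, at 1.67 (1.58 to 1.77) times, Padi2 by 0.49, at 1.58 (1.24 to 2.00) times, and Padi3 by 0.45, at 1.37 (1.34 to 1.41) times. The 4 deiminases thus had larger differences than the transglutaminases among the members, where Tgm2 was higher by 0.29, Tgm3 by 0.19 and Tgm1 by 0.17. The counting intervals did not part the families. That of Tgm2 (1.14 to 1.32) overlapped that of Padi2. The related Tgm6, higher by 0.40 at 1.32 (1.26 to 1.39) times, overlapped Padi3. Tgm3 and Tgm1 were lower, by -0.04 and -0.06, when the values were rescaled to TPM. Tgm5 was lower by -0.24, with an interval of its fold of 0.594 to 1.03 that held 1. The median of the members was 0.37, beside 0.00 for all genes, and TPM moved the median of expressed genes by -0.21 in this comparison.

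The direction of the age difference was thus lower in telogen and higher in anagen for 6 of the 8 members: Padi1, Padi2, Padi3, Tgm1, Tgm2 and Tgm3. Over all genes with a value, 4490 of 18152 (24.7%) showed this order of signs. Tgm1 and Tgm3 left it in TPM. The substrate list and muscle markers had the same order. All 10 genes of the substrate list were lower in OTD than YTD (median -0.69) and higher in OAD than YAD (median 0.71), and of 12 muscle markers 12 were lower in telogen (median -0.71) and 10 higher in anagen (median 0.30). The 11 hair shaft markers had medians of -1.13 in telogen and -0.22 in anagen. The part of these tissues in the age differences of the enzymes was not tested.

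Set against the substrate list, the age difference of Padi3 was -0.35 on the log2 scale in telogen and -0.02 in anagen, and that of Padi1 -0.01 and 0.56. For Padi4 it was 1.30 and 0.27, for Tgm1 0.21 and -0.30, for Tgm3 -0.05 and -0.28, and for Tgm5 -0.20 and -0.82. Set against the hair shaft markers the differences of Padi3 and Padi1 were above 0 in both phases, at 0.35 and 0.50 for Padi3 and 0.69 and 1.09 for Padi1. Set against the muscle markers, that of Padi2 was -0.07 and 0.25, and that of Tgm2 0.12 and -0.11. Here too the ratio depended on the list. Against endothelium, Schwann cell, macrophage and adipocyte markers Padi2 had -1.39, -1.08, -1.11 and -0.85 in telogen, and 0.22, 0.93, 1.08 and 0.27 in anagen. Tgm2 had -1.20, -0.89, -0.92 and -0.66 in telogen against these lists, and -0.14, 0.56, 0.72 and -0.09 in anagen. For the other groups of the hardening pathway the age differences were as follows. The proteases and inhibitors had medians of -0.08 in telogen and 0.55 in anagen, with 11 of 11 higher in OAD, and the lipid envelope genes -0.07 and 0.30. The cornified envelope genes had medians of 0.00 and 0.58, and the transcription factors -0.54 and 0.04, the last of which was below 0 under 4 of 5 rescalings.

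**Figure D5:**
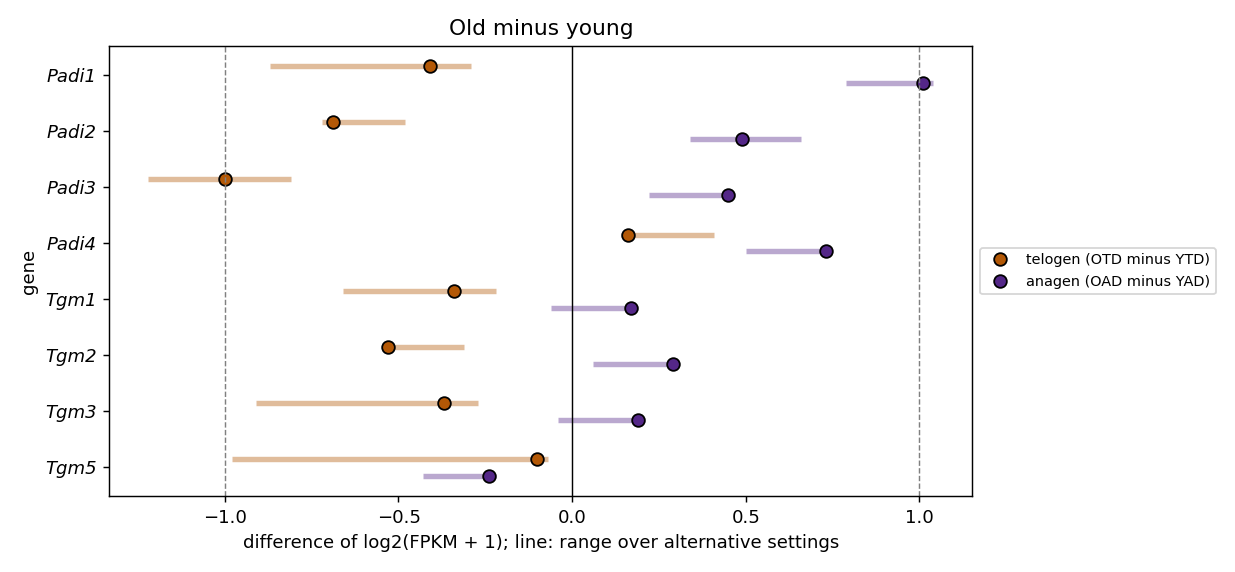
Difference of log2(FPKM + 1) between old and young for each member in telogen (orange) and anagen (purple). Lines give the range over the alternative settings and dashed lines the threshold of 1, and 7 of 8 points lie left of 0 in telogen and 7 of 8 right of 0 in anagen.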

How the data were processed

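dWAT RNA of 4 groups was sequenced as 1 library each. The authors deposited FPKM for 22913 genes, with positions and a listed length that is a multiple of 3 for 97% of genes, as a coding length is. The submitters' processing notes name bcl2fastq, TopHat2 and GRCm38, and the tool for FPKM and the annotation release are not given in the sources used here. FPKM were used as deposited. Differences were taken on log2(FPKM + 1) with a threshold of 1, and genes above 0 in either library were counted. Depth was estimated from features of 3000 to 8000 bases, whose lowest values gather at 1 fragment, so fragment numbers are rough. Symbols were matched for 21750 genes, and Flg and Krt85 were not analysed here.

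The members and gene lists were chosen with earlier results of these data known. All members and 6 relatives are named, up to 4 genes of each list by their range, and the 3 nearest genes of each member. List genes with other ranges (Lor, Krt1, Krt10 and Mpo) and the flanking genes were named after the values were seen. Comparisons share libraries: each library enters an age and a phase comparison. Alternatives were pseudocounts of 0.1 and 0.01, a minimum FPKM of 1, 5 rescalings and a threshold of 1.5. Scripts (Python 3.11.15, numpy 2.4.6, pandas 2.3.3, scipy 1.17.1, matplotlib 3.10.9) were run on simulated data with counting noise only. The changes planted there were larger than the age calls and lay in well expressed genes. The simulation therefore does not bear on the age calls or on weakly expressed members.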

Additional observations from a re-analysis of the deposited data

Results flagged for a closer look

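The age difference ran in opposite directions in telogen and anagen for 6 members, lower in OTD than YTD and higher in OAD than YAD. With 1 library per group this difference between the phases was not tested. Over all genes with a value, 4490 of 18152 (24.7%) were likewise lower in OTD than YTD and higher in OAD than YAD. In TPM, Tgm1 and Tgm3 left this order, at -0.06 and -0.04 in anagen. On the log2(FPKM + 1) scale, the anagen difference minus the telogen difference was 1.43 for Padi1, 1.18 for Padi2, 1.45 for Padi3, 0.51 for Tgm1, 0.82 for Tgm2 and 0.56 for Tgm3.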

How the results depend on the processing

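All 8 members stayed past the threshold between anagen and telogen in both ages, in the same directions, under the alternatives tried, except that Tgm5 in the old, at 1.41, left 7 under a threshold of 1.5. The age calls were less firm. In telogen the count of members went from 1 (Padi3) to 0 with the median of ratios, with TPM, with each of the 3 rescalings that leave out mitochondrial genes (alone, with skeletal muscle genes, or with hair and melanocyte genes), and with a threshold of 1.5. In anagen it went from 1 (Padi1) to 0 with TPM, with the same 3 rescalings and with a threshold of 1.5. Padi3 was past the threshold of 1 in 4 of 9 settings, deposited values included, and Padi1 in 5 of 9; the causes were not tested.

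Over all genes, 620 were past the threshold in telogen and 208 in anagen by age, and 5767 in the young and 5613 in the old by phase. A pseudocount of 0.1 gave 2144 and 1109 by age. A pseudocount of 0.01 gave 3445 and 2435 by age and 9761 and 9616 by phase. A threshold of 1.5 gave 141, 58, 3280 and 3178. The split of higher and lower genes moved with the scaling. By phase, TPM moved it from 2829 higher and 2938 lower to 5891 and 1274 in the young, and from 2854 and 2759 to 4923 and 1502 in the old. Without mitochondrial, hair and melanocyte genes it was 4292 and 1906 in the young, and without mitochondrial and muscle genes 2252 and 3547 in the old. By age in telogen, the 3 rescalings without mitochondrial genes moved it from 287 and 333 to 490 and 186, 435 and 231, and 463 and 175. In anagen they moved it from 128 and 80 to 96 and 116, 94 and 113, and 113 and 122, and TPM to 104 and 175. TPM moved the median of expressed genes by 0.73 and 0.53 by phase. No paired analysis was possible because each group has 1 library.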
